A study of Mus musculus with 40 samples.

Results

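The 10 genes described here encode parts of the epithelial barrier: the claudins Cldn3, Cldn4, Cldn7 and Cldn18, occludin (Ocln), E-cadherin (Cdh1), the cornified envelope precursor Sprr1a and the simple-epithelium keratins Krt8, Krt18 and Krt19. They were taken by symbol from the platform annotation, which gave them 16 of the 22690 probe sets: 4 for Cldn3, 3 for Krt8, 2 for Cldn18 and 1 for each of the others. They are 10 of the 12393 genes tested. RNA from mouse lung was measured on 40 single-colour arrays in 8 groups of 5. The groups cross 2 strains (AJ, which the labels call hyperresponsive, and C3H), aspiration of PBS alone or of allergen in PBS, and 6 h or 24 h after aspiration. The array titles abbreviate the allergen as OVA while the descriptions give HDM, so it is called allergen here. All 40 descriptions name AJ although 20 titles carry C3H, so strain was read from the titles. Sex, age and any earlier sensitisation of the mice are not stated in the sources used here. The labels number the arrays of a group and do not say whether each came from its own mouse. The p-values therefore rest on the spread among arrays, part of which may be technical.

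Tight junctions seal the space between neighbouring epithelial cells. Claudins form their strands and set which ions pass, occludin sits in the same strands, and Cldn18 is the claudin typical of alveolar epithelium in the lung. E-cadherin holds the adherens junction below. Keratins of the simple epithelia pair an acidic with a basic chain, Krt18 or Krt19 with Krt8, into filaments that brace the cell, and Sprr1a is a small proline-rich protein cross-linked under the membrane of squamous or stressed epithelium.

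The reference sequence before the start of Cldn4 and Sprr1a is shown because the allergen effect on each differed between 6 h and 24 h in C3H lungs. The group means behind this were unlike, as mean log2(intensity + 16) in C3H at 6 h and 24 h. Cldn4 was at 7.66 and 7.67 with PBS and at 8.09 and 6.63 with allergen. Sprr1a was at 7.21 and 8.57 with PBS and at 7.57 and 7.45 with allergen. Both windows are the 250 bases before the gene's start in RefSeq on GRCm38.p6, on the minus strand, and come from the C57BL/6J reference, not from AJ or C3H. They lie at chr5:134946935-134947184 for Cldn4 and chr3:92485882-92486131 for Sprr1a. Capitals mark matches to the AP-1 motif TGANTCA, where N is any base.
Cldn4: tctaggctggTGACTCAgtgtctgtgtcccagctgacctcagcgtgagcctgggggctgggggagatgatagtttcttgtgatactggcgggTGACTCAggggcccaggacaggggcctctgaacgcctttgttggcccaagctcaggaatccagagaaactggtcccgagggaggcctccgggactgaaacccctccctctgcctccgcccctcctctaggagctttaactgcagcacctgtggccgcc
Sprr1a: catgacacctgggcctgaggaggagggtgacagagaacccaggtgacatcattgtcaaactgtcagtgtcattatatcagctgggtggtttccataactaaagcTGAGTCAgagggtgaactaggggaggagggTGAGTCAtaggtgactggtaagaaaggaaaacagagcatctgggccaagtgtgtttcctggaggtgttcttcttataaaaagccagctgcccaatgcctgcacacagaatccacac
The matches began 240 and 158 bases before the start of Cldn4 and 146 and 116 bases before that of Sprr1a. This motif was found on either strand in 6.75% of the 32851 windows of this length in the RefSeq table. Among the 10 genes, 8 had a window in the table, with 11 windows in all, and Cldn4 and Sprr1a were the members whose window held it. Another 7 motifs were searched on both strands, with matches of different motifs allowed to overlap. The GC box GGGCGG, in 32.7% of windows, matched Cldn3, Cldn4, Cldn7 and Ocln. The E-box CACCTG, in 17.2%, matched Cldn4, Cldn7, Ocln, Sprr1a, Krt8 and Krt18. The TATA box TATAAA, in 12.4%, matched Sprr1a, and CCAAT, in 33.8%, matched Ocln and Sprr1a. The ETS motif CCGGAAG, in 6.91%, and the STAT motif TTCNNNGAA, in 7.02%, matched Cldn7. The glucocorticoid receptor motif AGAACA, in 16.1%, matched Cldn18 and Sprr1a. The motifs were chosen with the expression results known, and a match is a run of letters, not a shown binding site.

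Array medians ran from 63.7 to 81.3 in the deposited intensity units, correlations between arrays from 0.875 to 0.985, and no pair of arrays held identical values. The lung label was borne out by Sftpc of alveolar type 2 cells, at 4206 to 8585, and Scgb1a1 of club cells, at 4132 to 7444, on every array. Differences below are on the scale of log2(intensity + 16), given with the limma standard error (SE). A gene is said to have risen or fallen where its p-value, adjusted by Benjamini-Hochberg over all 12393 genes, was under 0.05. In whole-lung RNA, fewer cells of a type and less RNA per cell cannot be told apart.

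After allergen the 10 genes fell more often than they rose, and most of the falls were at 24 h. In AJ at 24 h, 5 of 10 fell (Cldn7, Ocln, Sprr1a, Krt8 and Krt19), where 3.28% of all genes fell. None rose, where 4.56% of all genes did. All 10 differences were negative, with a median of -0.52 against -0.004 over all genes. In C3H at 24 h, 3 of 10 fell (Cldn4, Sprr1a and Krt8) and none rose, where 1.15% of all genes fell and 2.1% rose, and the median was -0.29 against -0.04. In AJ at 6 h, Cldn3, Cldn18 and Krt19 fell and Ocln rose, where 12% of all genes fell and 7.03% rose. The median there was -0.008, against -0.07 over all genes. With the arrays centred on their medians, the split of all genes at 6 h in AJ moved from 871 higher and 1487 lower to 1002 and 1045, and in C3H at 24 h from 260 and 142 to 294 and 75. In C3H at 6 h Krt19 fell and the other 9 members did not pass, where 3.69% of all genes fell and 3.93% rose. The 4 allergen comparisons use separate arrays. When the 8 group means of a gene were put in order, neighbouring groups overlapped at every step for 8 of the 10 genes. The exceptions were 1 step of Cldn7 and 1 of Krt19. Neighbours in such an order are the groups with the closest means, so this count does not compare allergen with PBS. The share over all genes was not computed.

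**Figure D1:**
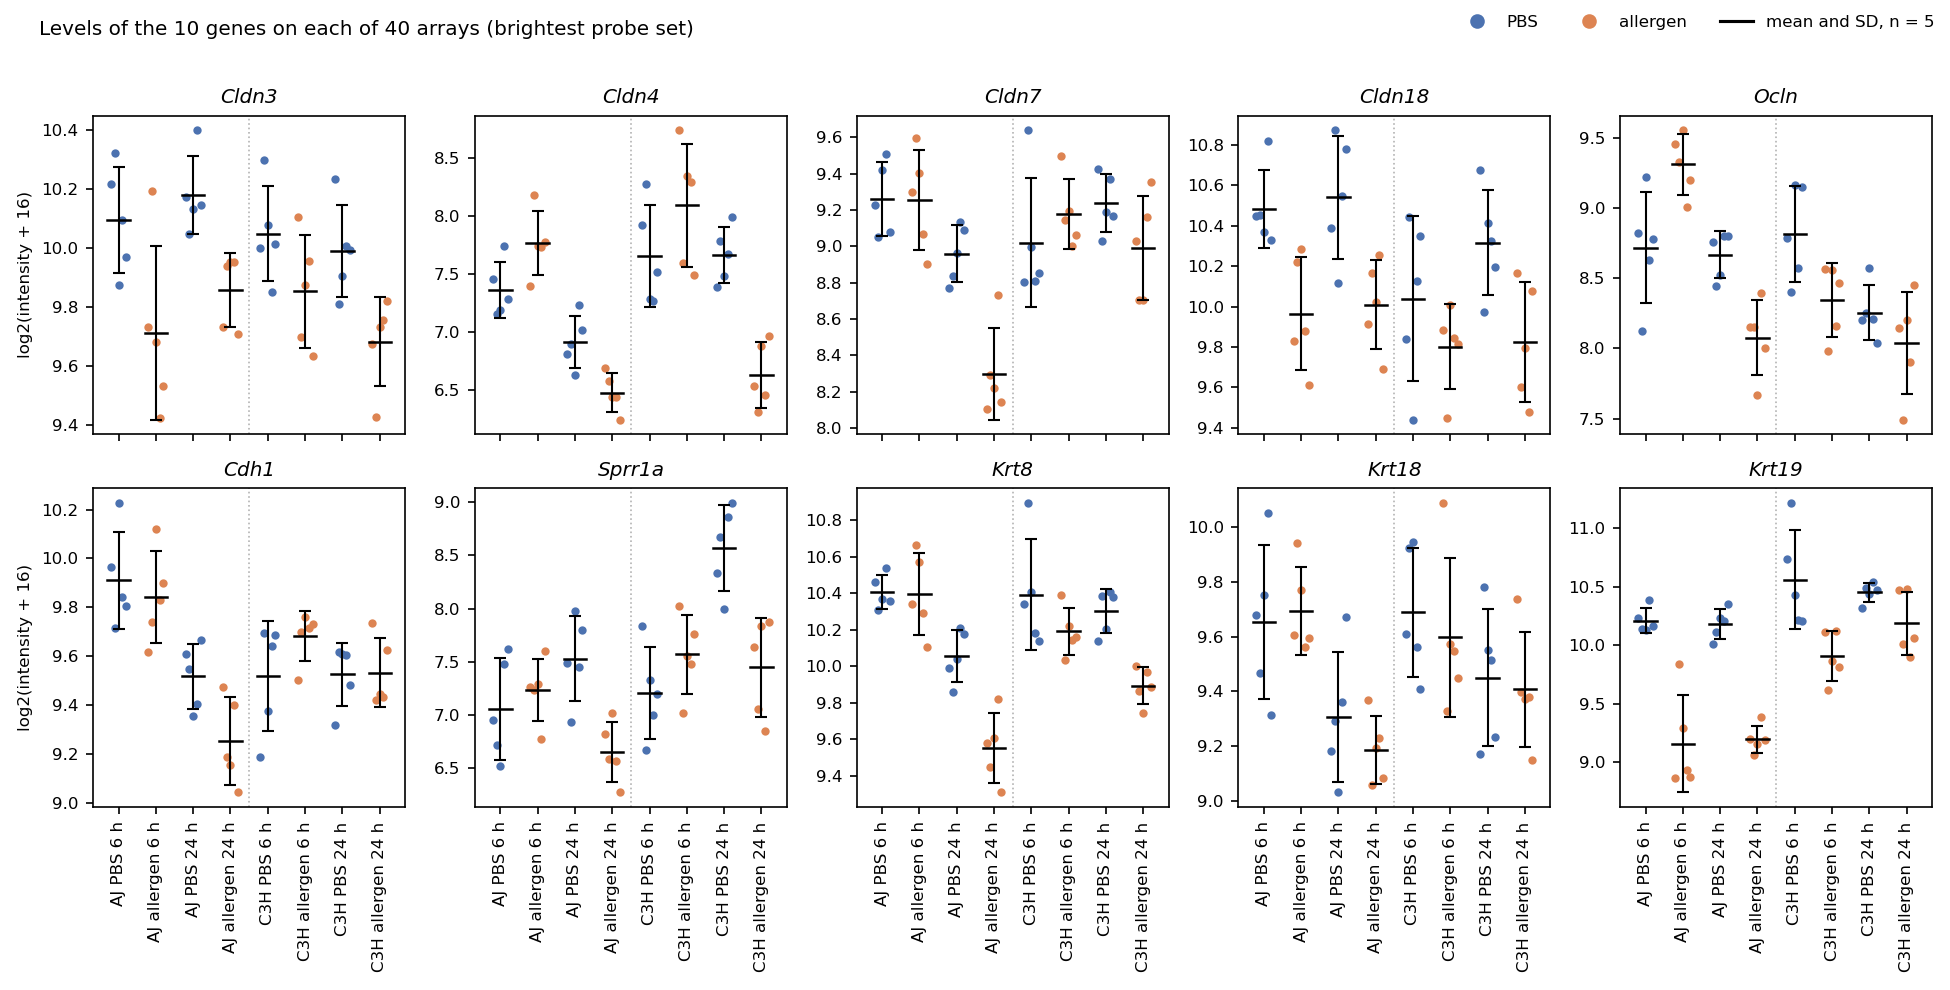
Level of each of the 10 genes, log2(intensity + 16) of its brightest probe set on the vertical axis, on each of the 40 arrays by group (blue points PBS, orange points allergen), with the mean and SD of 5 arrays as black bars. Krt19 on allergen arrays of AJ lies below every PBS array of the same strain at both times, and Sprr1a is highest on PBS arrays of C3H at 24 h.

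Among the claudins, Cldn4, a sealing claudin that injured alveolar epithelium is known to raise, had a late fall. On the C3H PBS arrays at 24 h its intensities were 151.8, 204.9, 163.5, 188.5 and 238.9, and on the allergen arrays of that time 76.8, 63.4, 102.1, 72.1 and 109.1. The groups do not overlap. Cldn4 fell there by 1.04 ± 0.20 (adjusted p = 0.00114). In AJ at 24 h the difference was -0.44 ± 0.20 and did not pass (adjusted p = 0.206). At 6 h the differences were 0.40 ± 0.20 in AJ and 0.44 ± 0.20 in C3H, and neither passed. In C3H the allergen effect at 24 h minus that at 6 h was -1.47 ± 0.28 (adjusted p = 0.00628). Cldn4 and Sprr1a were the 2 members that passed in this comparison, as 0.88% of all genes did in either direction. In AJ the same difference was -0.84 ± 0.28 (adjusted p = 0.0684). The difference between strains in the 24 h effect was -0.60 (95% interval -1.16 to -0.03, adjusted p = 0.366). Fitted on the groups of the contrast alone, the difference between times in C3H had an adjusted p of 0.0574.

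Cldn7, a claudin of the lateral membrane, fell in AJ at 24 h. Its PBS intensities were 420.3, 441.4, 482.6, 546.5 and 529.6, and its allergen intensities 259.7, 297.6, 282.3, 409.4 and 266.4. Every allergen array was below every PBS array, and the fall was 0.66 ± 0.15 (adjusted p = 0.00349). In the order of the 8 group means this step, from AJ PBS at 24 h down to AJ allergen at 24 h, is the single step of Cldn7 at which neighbouring groups do not overlap. At 6 h in AJ the difference was -0.004 ± 0.15, with a 95% interval of -0.31 to 0.31. In C3H the differences were 0.16 ± 0.15 at 6 h and -0.25 ± 0.15 at 24 h, and neither passed. The difference between strains at 24 h was 0.41 (95% interval -0.02 to 0.85, adjusted p = 0.427).

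Cldn18 and Cldn3 fell at 6 h in AJ, by smaller amounts. Cldn18 read 1382, 1388, 1308, 1788 and 1272 on PBS arrays and 895.4, 1177, 1232, 926 and 766.7 on allergen arrays. The groups are apart by a small margin, and the fall was 0.52 ± 0.17 (adjusted p = 0.0291). Without AJ PBS replicate 4, the array at 1788, the adjusted p was 0.0983, and it was between 0.0616 and 0.1 without allergen replicate 1, 4 or 5. At 24 h in AJ the difference was of like size, -0.53 ± 0.17, with an adjusted p of 0.0506. In C3H it was -0.24 ± 0.17 at 6 h and -0.49 ± 0.17 at 24 h, and neither passed. Cldn3, the claudin of most simple epithelia, read 1174, 1264, 923.5, 1079 and 987.8 with PBS and 834.9, 1155, 804.6, 671 and 725.1 with allergen at 6 h in AJ. One range reaches into the other through allergen replicate 2. The fall was 0.38 ± 0.12 (adjusted p = 0.018). It no longer passed without PBS replicate 2 (0.067), allergen replicate 4 (0.0785) or allergen replicate 5 (0.057), nor with the arrays centred on their medians (0.0757). At 24 h in AJ the lowest PBS array, at 1042, lay above the highest allergen array, at 975.8, but the difference of -0.32 ± 0.12 did not pass (adjusted p = 0.0963). In C3H the differences were -0.20 ± 0.12 at 6 h and -0.31 ± 0.12 at 24 h, and neither passed.

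Occludin moved in opposite directions at the 2 times in AJ. At 6 h its intensities were 436.6, 263.7, 583, 380.3 and 424.4 with PBS and 689.4, 627.9, 737.9, 500.6 and 573.1 with allergen, groups that overlap, and it rose by 0.60 ± 0.18 (adjusted p = 0.0135). At 24 h they were 417.6, 333.5, 352.7, 431.5 and 431.2 with PBS and 269.3, 268.9, 187.3, 320.4 and 240.9 with allergen, groups that do not overlap, and it fell by 0.59 ± 0.18 (adjusted p = 0.0291). The difference between the 2 effects was -1.19 ± 0.25 (adjusted p = 0.00232). Ocln was the member that passed in this comparison, where 5.62% of all genes passed in either direction. In C3H the 6 h values were 425.3, 322.7, 559.3, 365.7 and 552.9 with PBS and 363.9, 237, 361.6, 269.5 and 337.1 with allergen. The C3H difference pointed down at -0.47 ± 0.18 and did not pass (adjusted p = 0.106), and at 24 h it was -0.22 ± 0.18. The allergen effect at 6 h differed between the strains by -1.07 ± 0.25 (C3H minus AJ, adjusted p = 0.0134). Of all genes 2.15% passed in that comparison, and Ocln was the member among them. Fitted on the groups of the contrast alone the adjusted p was 0.0577. The rise at 6 h did not pass without PBS replicate 2, the lowest of its group (0.0769), and the fall at 24 h did not pass when PBS replicate 1, 4 or 5 or allergen replicate 3 or 5 was left out (0.0612 to 0.117).

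E-cadherin did not pass in any allergen comparison. Its differences were -0.07 ± 0.11 at 6 h and -0.26 ± 0.11 at 24 h in AJ, and 0.17 ± 0.11 and 0.01 ± 0.11 in C3H. The widest of the 95% intervals on the low side reached -0.49, in AJ at 24 h. Cdh1 differed instead between PBS groups. The AJ PBS arrays at 6 h read 982.5, 825.7, 1183, 902.1 and 877.7, above all C3H PBS arrays of that time (567.5, 812.9, 648.8, 782.7 and 807.3) and above all AJ PBS arrays at 24 h (764.2, 733.3, 639.1, 662.3 and 796.5). The C3H level was lower by 0.39 ± 0.11 (-0.39, adjusted p = 0.0316), in a comparison that 4.45% of genes passed. The 24 h level in AJ was lower by as much (-0.39 ± 0.11, adjusted p = 0.0282), where 5.37% of genes passed. Cdh1 was the member that passed in each. These 2 comparisons share the AJ PBS arrays at 6 h. Without replicate 3 of that group, the highest, the adjusted p was 0.15 for the strains and 0.127 for the times, and without replicate 1 it was 0.0595 and 0.0557.

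Sprr1a had the widest range of group means of the 10 genes, 1.92 on the log2 scale, from C3H PBS at 24 h down to AJ allergen at 24 h. It fell with allergen at 24 h in both strains. In C3H the PBS arrays read 307.4, 392.2, 238.7, 449.2 and 494.1 and the allergen arrays 182.8, 117.4, 212.2, 99.5 and 218.1, with no overlap and a fall of 1.12 ± 0.24 (adjusted p = 0.00495). In AJ the PBS arrays read 164.1, 106.1, 236.1, 158.8 and 207.3 and the allergen arrays 97.3, 80.1, 113.6, 78.9 and 61.3, which overlap, with a fall of 0.88 ± 0.24 (adjusted p = 0.0161). The AJ call was lost without PBS replicate 3 (0.0625) or allergen replicate 5 (0.0558), and with muscle and adipose marker means as covariates (-0.52, adjusted p = 0.362). The 24 h effect did not differ detectably between strains (-0.24, 95% interval -0.93 to 0.44). The PBS level itself moved in C3H. At 6 h the C3H PBS arrays read 212.9, 85.8, 145.1, 112.2 and 130.7, all below the 24 h arrays, and the PBS level was 1.36 ± 0.24 higher at 24 h (adjusted p = 0.00057), where 3.21% of genes passed. It was also higher in C3H than in AJ on PBS arrays at 24 h, by 1.04 ± 0.24 (adjusted p = 0.00991). Cldn4 was the other member to pass there, at 0.75 ± 0.20 (adjusted p = 0.0315), where 1.93% of genes passed. The C3H allergen arrays at 24 h lay in the range of the C3H PBS arrays at 6 h apart from replicate 5. At 6 h the allergen differences were 0.18 ± 0.24 in AJ and 0.36 ± 0.24 in C3H and did not pass. The difference between times in C3H was -1.48 ± 0.34 (adjusted p = 0.0257), and that in AJ was -1.05 ± 0.34 (adjusted p = 0.0598). Mean log2 levels in C3H were 7.57 at 6 h and 7.45 at 24 h with allergen, and 7.21 and 8.57 with PBS. The C3H fall, the PBS rise, the strain difference on PBS arrays and this difference between times all use the C3H PBS arrays at 24 h. They are therefore not separate results. The C3H difference between times had an adjusted p of 0.0654 when fitted on its own groups alone. It was 0.0605 without PBS 6 h replicate 2, 0.066 without allergen 6 h replicate 1, 0.0554 without PBS 24 h replicate 4 and 0.0557 without PBS 24 h replicate 5. The strain difference of Sprr1a on PBS arrays did not pass without AJ replicate 2 (0.0567), and that of Cldn4 did not pass in 6 of 10 such fits (0.0654 to 0.115).

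Krt19, an acidic keratin of airway and mesothelial cells among others, was the one of the 3 keratins among the 10 genes that fell at 6 h, and in AJ at 24 h its fall was larger than that of Krt8. In AJ at 6 h it read 1187, 1110, 1106, 1325 and 1132 with PBS and 450.4, 899.9, 611.4, 472.7 and 453.6 with allergen. It fell by 1.05 ± 0.16 (adjusted p = 3.68e-06), with no overlap. At 24 h in AJ it read 1015, 1094, 1189, 1164 and 1291 with PBS and 571.5, 520.4, 555.1, 652.2 and 568.1 with allergen, and fell by 0.98 ± 0.16 (adjusted p = 3.39e-05). Its mean log2 level on AJ allergen arrays was 9.16 at 6 h and 9.20 at 24 h. The difference between the 2 effects was 0.07 ± 0.23 (adjusted p = 0.932). In C3H at 6 h the PBS arrays read 1689, 2367, 1365, 1174 and 1170 and the allergen arrays 1091, 769.8, 916.1, 1100 and 882.8, a fall of 0.66 ± 0.16 (adjusted p = 0.00647). Every allergen array lay below every PBS array, though PBS replicate 2 stood far above the others. The step from this C3H allergen group down to AJ allergen at 24 h, 0.71 between group means, is the one at which neighbouring groups of Krt19 do not overlap. The adjusted p was at most 0.0413 with any 1 of these arrays left out, and 0.0981 when fitted on these groups alone. In C3H at 24 h the PBS values were 1260, 1420, 1374, 1473 and 1410 and the allergen values 1410, 1019, 1413, 941.5 and 1055, which overlap, and the difference of -0.26 ± 0.16 did not pass. The difference between strains did not pass at 6 h (0.39, adjusted p = 0.459) or at 24 h (0.72, 95% interval 0.26 to 1.18, adjusted p = 0.152). At 24 h 0 of 10 members passed that comparison, against 0.46% of all genes. At an unadjusted p under 0.05, 2 of 10 passed in limma, Krt19 and Cldn4, where 12.6% of all genes did.

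Krt8, the basic partner of Krt18 and Krt19, fell at 24 h in both strains. In AJ it read 1002, 913.9, 1038, 1170 and 1141 with PBS and 750.2, 682.3, 762.8, 888.7 and 617.9 with allergen, a fall of 0.50 ± 0.12 (adjusted p = 0.0033). In C3H it read 1113, 1321, 1162, 1341 and 1318 with PBS and 1008, 917, 842.2, 987.4 and 930.2 with allergen, a fall of 0.41 ± 0.12 (adjusted p = 0.04). Neither pair of groups overlaps. The C3H call was lost in 8 of the 10 fits that left out an array (adjusted p 0.0565 to 0.0969). It was also lost with the arrays centred on their medians (-0.35, adjusted p = 0.134), with the mean of its probe sets (-0.27, adjusted p = 0.253) and in a fit on these groups alone (adjusted p = 0.0653). At 6 h the differences were -0.01 ± 0.12 in AJ and -0.20 ± 0.12 in C3H and did not pass. Krt18, whose gene is next to Krt8, did not pass in any of the 12 comparisons. Its allergen differences ran from -0.12 to 0.04, each ± 0.15. In AJ at 24 h its 95% interval was -0.42 to 0.17, and the PBS range of 506.8 to 798.6 held all allergen arrays (517.2 to 644.4). The Krt8 estimate there, -0.50, lies outside that interval. The 95% interval of Krt8, -0.74 to -0.27, overlaps it, and the difference between the 2 genes was not tested.

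**Figure D2:**
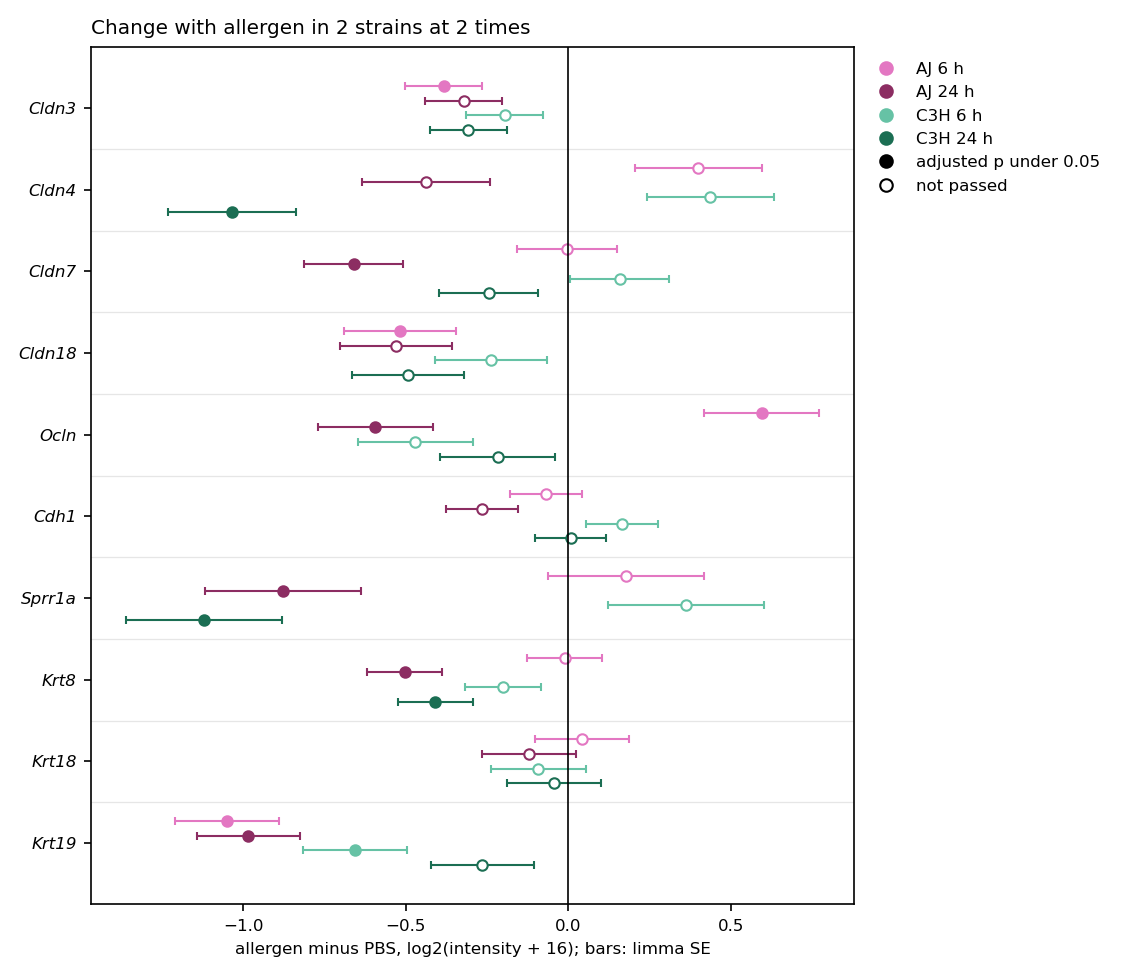
Allergen minus PBS for each of the 10 genes in both strains at both times, on the log2(intensity + 16) scale, with limma SE bars and filled points where the adjusted p was under 0.05. Krt19 lies to the left of 0 in all 4 comparisons, and Ocln lies at 0.60 in AJ at 6 h and below 0 in the other 3.

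Other probe sets of 3 genes changed the picture at 24 h. When each probe set was tested on its own over all probe sets, 2 dimmer sets of Cldn3 fell in AJ at 24 h, by 0.66 ± 0.17 (adjusted p = 0.00977) and 0.68 ± 0.17 (adjusted p = 0.00824). The third gave -0.65 ± 0.23 and the brightest -0.32 ± 0.12, and neither passed. With the probe sets of a gene averaged, Cldn3 fell there by 0.58 (adjusted p = 0.00838), and its call at 6 h was lost (-0.36, adjusted p = 0.0804). The second set of Cldn18 fell at 24 h in AJ, by 0.89 ± 0.25 (adjusted p = 0.0281), while at 6 h it gave -0.21 ± 0.25. For Krt8 the 2 other sets fell at 24 h in AJ, by 0.54 ± 0.13 and 0.82 ± 0.19, as the brightest did. In C3H at 24 h they gave -0.32 ± 0.13 and -0.07 ± 0.19 and did not pass. The calls of Cldn3 and Cldn18 therefore depend on the probe set by time, and all their values in the allergen comparisons are below 0.

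**Figure D3:**
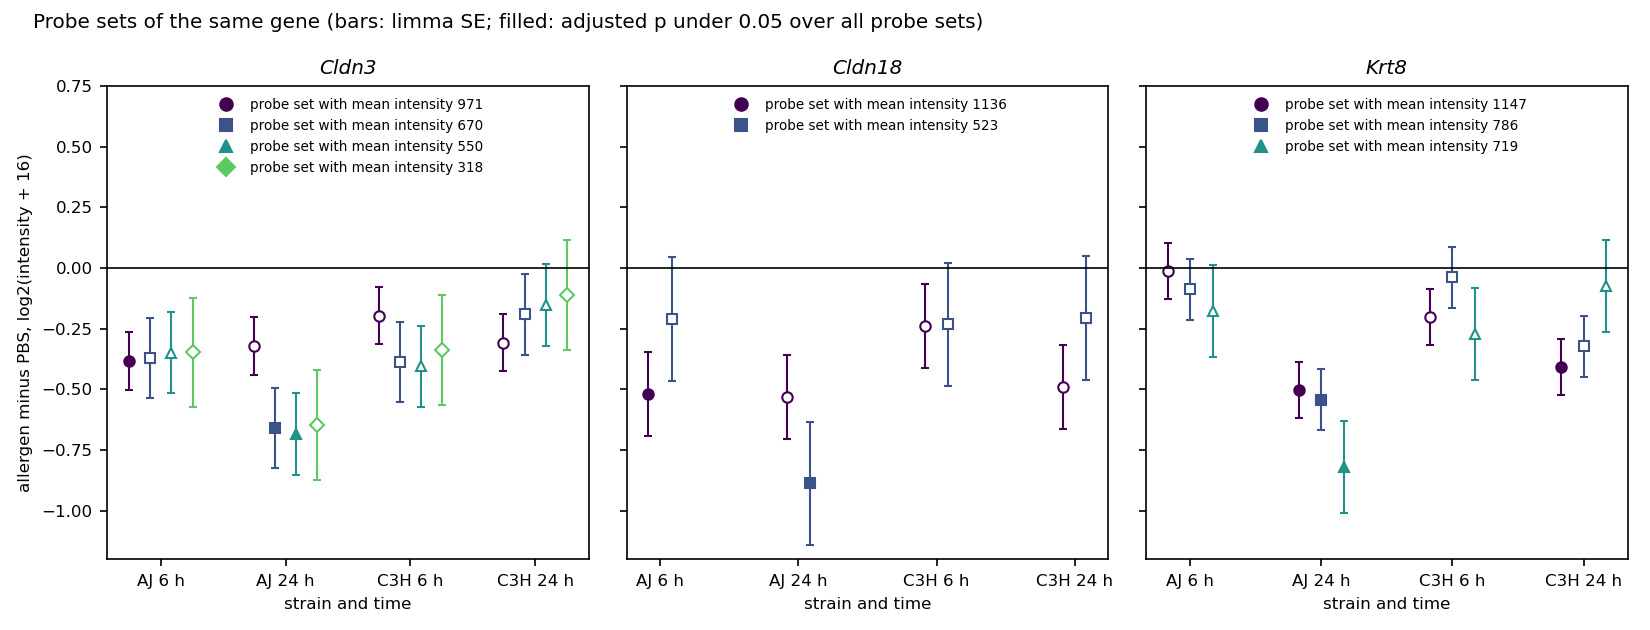
Allergen minus PBS on the log2(intensity + 16) scale for every probe set of Cldn3, Cldn18 and Krt8, by strain and time, with limma SE bars and filled points where the adjusted p over all probe sets was under 0.05. At 24 h in AJ all 9 probe sets lie below 0 and 6 of them passed.

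The wider junction lists fell in few members. Of 34 other tight junction genes measured, 5 fell in AJ at 6 h and 5 at 24 h with none higher. Each is 14.7% of the list, close to the 12% of all genes that fell at 6 h and above the 3.28% at 24 h. In C3H 3 fell and 1 rose at 6 h, where 3.69% of all genes fell and 3.93% rose, and 1 fell at 24 h, where 1.15% of all genes fell. The list medians ran from -0.16 to -0.10, against -0.07 to -0.002 over all genes. In AJ at 6 h the largest falls were those of Tjp1, the scaffold protein ZO-1, at -0.70 ± 0.12, and of the polarity genes Prkci (-0.62 ± 0.13) and Pard6a (-0.61 ± 0.13). At 24 h in AJ they were those of Cldn8 (-0.58 ± 0.16), Prkcz (-0.52 ± 0.14) and Prkci (-0.44 ± 0.13). Prkcz also fell at 6 h, in AJ (-0.44 ± 0.14) and in C3H (-0.55 ± 0.14). Cldn8 also fell in C3H, at -0.63 ± 0.16 at 6 h and -0.58 ± 0.16 at 24 h, but it was dim, at a mean log2 level of 5.24. Of 16 other adherens junction genes, 4, 3, 2 and 1 fell in AJ at 6 h, AJ at 24 h, C3H at 6 h and C3H at 24 h, and none rose. Over all genes 12%, 3.28%, 3.69% and 1.15% fell in these comparisons. They included Ctnnd1, p120-catenin, which stabilises cadherins at the membrane (-1.02 ± 0.26), and Ajuba (-0.80 ± 0.20) in AJ at 6 h. Jup, plakoglobin, was at -0.60 ± 0.18 in AJ at 6 h, -0.55 ± 0.18 in AJ at 24 h and -0.70 ± 0.18 in C3H at 6 h. The gene that fell in C3H at 24 h was Cdh5, the cadherin of endothelium (-0.46 ± 0.13). Of 16 desmosome and hemidesmosome genes, 2 fell in AJ at 6 h, or 12.5% against 12% of all genes. At 24 h in AJ 3 fell, or 18.8% against 3.28%, among them Dst (-0.72 ± 0.16) and Lama3 (-0.70 ± 0.13). Lama3 also fell in AJ at 6 h (-0.42 ± 0.13), and Dsc1 rose in C3H at 6 h (0.74 ± 0.23).

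Of 19 other keratins, 2 fell at each time in AJ. That is 10.5% of the list, against 12% of all genes at 6 h and 3.28% at 24 h. Krt7, a simple-epithelium keratin, fell in AJ at 6 h (-0.68 ± 0.13), in AJ at 24 h (-0.40 ± 0.13) and in C3H at 6 h (-0.54 ± 0.13), the same 3 comparisons in which Krt19 fell. Krt23 fell in AJ at 6 h (-1.13 ± 0.17). Krt15, a basal cell keratin, fell in AJ at 24 h (-2.32 ± 0.74) but was below 16 on 18 of 40 arrays. In C3H at 6 h Krt10 rose (0.51 ± 0.15), and at 24 h no keratin of the list passed. Of 16 other cornified envelope genes, 2 rose and 2 fell in AJ at 6 h, 12.5% each way, where 7.03% of all genes rose and 12% fell. Tgm1, the transglutaminase that cross-links the envelope, rose by 1.91 ± 0.28 there and by 1.23 ± 0.28 in C3H at 6 h, while Sprr1a did not pass at 6 h. Ppl, periplakin, fell in AJ at 6 h (-0.89 ± 0.18). In AJ at 24 h Sprr1b (-1.70 ± 0.47) and Scel (-0.79 ± 0.22) fell, as did Sprr1a. Scel also fell in AJ at 6 h (-0.69 ± 0.22). Sprr1b was dim, at a mean log2 level of 5.12 over the 40 arrays. Some brighter genes of these lists had wide SEs at 6 h and did not pass. Krt4 was at -1.43 ± 1.58 in AJ and 3.37 ± 1.58 in C3H. Krt13 was at -1.26 ± 1.35 and 2.63 ± 1.35, and Lor at -0.64 ± 0.82 and 1.78 ± 0.82. Whether their spread bears on Sprr1a was not tested.

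No gene of the E-cadherin repressor and mesenchymal list, 9 measured, rose in any allergen comparison. Of all genes 7.03% and 4.56% rose in AJ at 6 h and 24 h, and 3.93% and 2.1% in C3H. With shares of this size a list of 9 genes can hold no rise without differing from all genes. The list medians ran from -0.03 to 0.05. Of the 9, 2 fell in AJ at 6 h, or 22.2% against 12% of all genes. They were Snai2, which encodes the repressor Slug (-1.02 ± 0.19), and Zeb1 (-0.37 ± 0.12). In C3H at 6 h Snai2 alone fell (-0.59 ± 0.19), or 11.1% against 3.69%. At 24 h 0 fell in either strain. Of 17 epithelial transcription and splicing factors, 2 rose and 3 fell in AJ at 6 h, 11.8% and 17.6% of the list, not far from the 7.03% and 12% of all genes. Foxa2 (-0.86 ± 0.15) and Cebpa (-0.84 ± 0.16), factors of lung epithelial differentiation, and Grhl2 (-0.69 ± 0.13), a regulator of junction genes, were lower. Elf3 (0.68 ± 0.14) and Ehf (0.56 ± 0.16) were higher. In C3H at 6 h 2 factors rose and 1 fell, where 3.93% of all genes rose and 3.69% fell. Klf5 was the 1 gene of the list that passed in AJ at 24 h (-0.68 ± 0.19). Nkx2-1, the lung lineage factor, was the 1 that passed in C3H at 24 h (-0.78 ± 0.20). Each is 5.88% of the list, where 3.28% of all genes fell in AJ and 1.15% in C3H. Of 18 genes known from the transitional state of injured alveolar epithelium, in which Krt8 is high, 5 rose and 1 fell in AJ at 6 h. Of all genes 7.03% rose and 12% fell there. Cdkn1a rose by 1.13 ± 0.18, Plaur by 0.98 ± 0.18 and Tnfrsf12a by 0.93 ± 0.21, while Krt8 itself was at -0.01 ± 0.12. Ccn2 was the gene that fell in AJ at 6 h (-0.70 ± 0.14). At 24 h in AJ 1 of these 18 genes rose and 1 fell, where 4.56% of all genes rose and 3.28% fell. In C3H 1 rose and 1 fell at 6 h, where 3.93% of all genes rose and 3.69% fell. At 24 h in C3H 1 rose and 0 fell, where 2.1% of all genes rose and 1.15% fell.

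**Figure D4:**
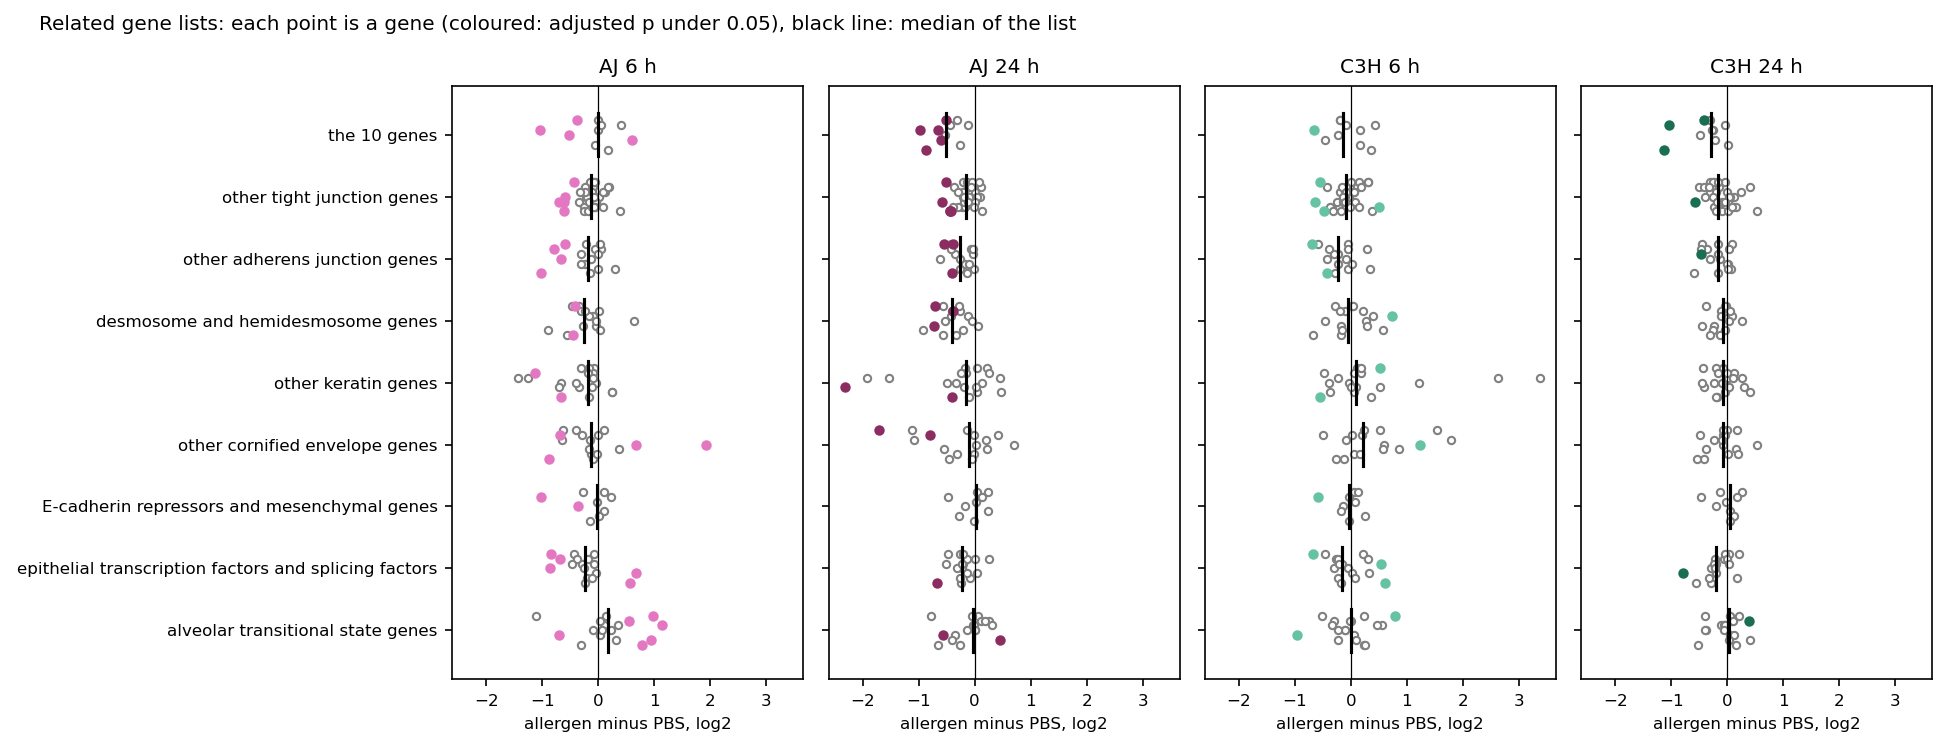
Allergen minus PBS (log2) of every measured gene of the 10 and of 8 related lists, a panel for each strain and time, with coloured points where the adjusted p was under 0.05 and a black line at each median. The median of the 10 genes lies at -0.52 in AJ at 24 h, and those of the other lists in that panel between -0.40 and 0.03.

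Markers of several cell types moved with these groups. Of 6 alveolar type 1 markers, 5 fell in AJ at 6 h, 2 in AJ at 24 h, 2 in C3H at 6 h and 0 in C3H at 24 h. Over all genes 12%, 3.28%, 3.69% and 1.15% fell in these comparisons, in this order. Their summed intensity was 11840 to 14860 with PBS and 8422 to 10470 with allergen in AJ at 6 h, and 11440 to 13140 against 9259 to 9843 at 24 h. In C3H it was 12070 to 14020 against 9761 to 11160 at 6 h, and 11830 to 13840 against 10380 to 12660 at 24 h. The groups of this sum overlap in C3H at 24 h alone. Of 8 type 2 markers 0 to 2 fell in each comparison, and of 7 club markers 4 fell in AJ at 24 h and 1 in C3H at 6 h. Of 4 mesothelial markers 1, Upk3b, fell in AJ at each time. Their sum in AJ was 837 to 1071 with PBS and 494.7 to 797 with allergen at 6 h. At 24 h it was 1009 to 1126 against 494.2 to 811.5. In C3H the mesothelial sums overlapped, at 805.9 to 1261 against 650.8 to 979.8 at 6 h. At 24 h they were 1000 to 1212 against 815.8 to 1079. Of 5 ciliated markers 1, Tppp3, fell in each comparison but C3H at 24 h. The ciliated sum was 1607 to 1772 with PBS and 973.1 to 1321 with allergen in AJ at 24 h. Tppp3 carries most of this sum, at a mean intensity of 926.1 over the 40 arrays, against 171.4 for Foxj1, the next brightest. Basal markers were dim, at a sum of 351.8 to 664 with PBS and 153.2 to 398 with allergen in AJ at 24 h, and 107 to 526 against 107.6 to 629.6 in C3H. Among the basal markers Krt15 was below 16 on 18 of the 40 arrays, and Krt5 and Ngfr on 5 each. The part of these cell types in the results was not tested.

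Markers of other cells rose. All 7 goblet markers rose in AJ at each time, 5 in C3H at 6 h and 6 at 24 h. Neutrophil markers rose in 7, 3, 3 and 0 of 7 and macrophage markers in 5, 7, 4 and 5 of 8, in the order AJ at 6 h, AJ at 24 h, C3H at 6 h, C3H at 24 h. In the same order 7.03%, 4.56%, 3.93% and 2.1% of all genes rose. Of 9 endothelial markers 3 fell at 6 h in each strain, where 12% of all genes fell in AJ and 3.69% in C3H. Of 5 T cell markers 2 rose in AJ at each time. The arrays were scaled to a common level, and the part of added cells in the falls was not tested. Cardiac and skeletal muscle markers, 3 of 10, and 1 of 5 adipose markers were lower in AJ at 24 h, where 3.28% of all genes fell. The muscle sum was 5242 to 9672 with PBS and 2201 to 5820 with allergen, and the adipose sum 458 to 1940 against 116 to 872.3. With the means of the muscle and adipose markers as covariates, the AJ difference of Sprr1a at 24 h did not pass, as given above, and Ocln gave -0.61 at 24 h (0.0783) and 0.49 at 6 h (0.0517). Cldn3 passed at 24 h in AJ with these covariates (-0.45, adjusted p = 0.0398). Krt19, Krt8 and Cldn7 still passed there, and so did Cldn4, Sprr1a and Krt8 in C3H.

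Across the 40 arrays the levels of Cldn7 and Krt8 moved most closely among all pairs of the 10 genes, with Pearson's r of 0.85, and 0.75 after the group means were removed. Cldn4 with Krt8 gave 0.76 (0.56 within groups) and Krt8 with Krt18 gave 0.73 (0.61 within groups). Ocln with Krt19 gave -0.12. The points share arrays and scaling, so these values are descriptions. Krt8 and Krt18 are 23873 bases apart on chromosome 15 and Cldn3 and Cldn4 39279 bases apart on chromosome 5 of GRCm38.p6, in each case with 0 protein-coding genes between them. Krt8 fell at 24 h while its neighbour Krt18 did not pass, and Cldn3 with Cldn4 gave r = 0.21 (0.52 within groups). Of 6196 genes with a mean above the median, the closest to Krt19 were Ephx1 (r = 0.89), a microsomal epoxide hydrolase, Krt7 (0.88) and Clstn1 (0.84). The closest to Krt8 was Spint1 (0.82), a protease inhibitor of epithelia, and to Cldn7 Fbln5 (0.79). Scnn1b (0.77), a subunit of the epithelial sodium channel, was closest to Cldn18, and Epha2 (0.76) to Cldn4. Errfi1 (0.74), a feedback inhibitor of EGF receptor signalling, was closest to Ocln. The others were Eps8l2 for Cldn3 (0.75), Sos2 for Cdh1 (0.74), Dcn for Sprr1a (0.69) and Hs3st1 for Krt18 (0.62).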

How the data were processed

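The deposited table holds 1 linear intensity per probe set and array. The authors had scaled the arrays: in the deposited intensity values the mean after trimming 2% at each end was 150 on every array. The software behind them is not given in the sources used here. Probe sets were named from the platform annotation (20380 with 1 symbol, 691 with several, 1555 with none), and 20351 were matched by Entrez number to RefSeq GRCm38.p6. A gene took its brightest single-symbol probe set, which left 12393 genes. Values became log2(intensity + 16), which understates changes of dim genes, and 13.6% of tested values were below 16. Group means of all 40 arrays were fitted with limma 3.58.1 (lmFit, eBayes) in R 4.3.3, and 12 contrasts were each adjusted by Benjamini-Hochberg over all genes, two-sided at 0.05.

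The 10 genes, the lists and the tests were chosen with earlier results of these data known. Named genes were all members, up to 3 passing genes with the largest change in each list and allergen comparison, and the 3 genes most like each member over the arrays, of which the report prints part. The alternatives changed the scaling (quantile, or each array centred on its median), the pseudocount (1 or 64) or the genes kept (all but the dimmest 25%), or used the mean of a gene's probe sets, each probe set by itself, a trended robust eBayes, the replicate number as a block, muscle and adipose covariates, the groups of a contrast alone, and leaving out each array in turn. The replicate numbers did not pair the arrays. The number of arrays limits the precision.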

Additional observations from a re-analysis of the deposited data

Results flagged for a closer look

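In 3 of 80 groups of 5 arrays (10 genes in 8 groups) a single array stood apart by Dixon's criterion, and chance gives about 1 in 20 such groups. Cldn7 read 781 on C3H PBS 6 h replicate 2, with the next array at 494. Cldn18 read 1790 on AJ PBS 6 h replicate 4, with the next at 1390. Cdh1 read 710 on C3H allergen 6 h replicate 1, with the next at 816. The call of Cldn18 in AJ at 6 h was lost without the array named here (adjusted p = 0.0983).

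A difference between allergen effects passed the limma test for 3 genes. For Ocln the effect at 6 h differed between strains by -1.07 (C3H minus AJ), and in AJ the effect at 24 h differed from that at 6 h by -1.19. In C3H the effect at 24 h differed from that at 6 h by -1.47 for Cldn4 and by -1.48 for Sprr1a.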

How the results depend on the processing

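No change of the 10 genes that passed reversed its sign under any of the alternatives run. The falls of Krt19 in AJ at both times, of Cldn7 and Krt8 in AJ at 24 h and of Cldn4 and Sprr1a in C3H at 24 h passed under all 11 alternatives and with any 1 array of their groups left out, as did the difference of Ocln between times in AJ and the higher Sprr1a on C3H PBS arrays at 24 h than at 6 h. The count of members called in AJ at 6 h, 4, became 2 with median centring and 2 with the mean of probe sets, and 2 to 4 with an array left out. In AJ at 24 h, 5 became 3 to 6 with an array left out, 6 with a pseudocount of 64, without the 25% of genes with the lowest mean or with a trended robust eBayes (Cldn18 gained), 7 with the mean of probe sets (Cldn3 and Cldn18 gained) and 4 with covariates (Ocln and Sprr1a lost, Cldn3 gained). In C3H at 24 h, 3 became 2 with median centring and 2 with the mean of probe sets (Krt8 lost). With covariates the AJ count at 6 h was 3 (Ocln lost). Fitted on the groups of the contrast alone, the counts became 3 for AJ at 6 h (from 4, Cldn3 lost), 2 for C3H at 24 h (from 3, Krt8 lost), 0 for C3H at 6 h (from 1), 0 for the strain difference at 6 h (from 1), 1 for that at 24 h (from 0, Krt19, adjusted p = 0.0488), 3 for the time difference in AJ (from 1), 0 for that in C3H (from 2), 0 for the strains on PBS arrays at 6 h (from 1) and 0 for the times on AJ PBS arrays (from 1). The count for the time difference in AJ became 3 with quantile normalization, 2 with median centring, 2 without the 25% of genes with the lowest mean, 2 with covariates, and 1 to 4 with an array left out. On AJ PBS arrays the count between times became 2 with quantile normalization, 2 with a pseudocount of 64 and 0 with covariates. With an array left out, the counts were 2 to 3 for C3H at 24 h, 1 to 2 for the time difference in C3H, 0 to 1 and 0 to 2 for the strains on PBS arrays at 6 h and 24 h, and 0 to 1 and 1 to 2 for the times on PBS arrays in AJ and C3H. No scaling moved the median of all genes by over 0.1.

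With the replicate number as a block, the count for the time difference in AJ became 2 (Sprr1a, adjusted p = 0.0358) and that for the times on C3H PBS arrays 2 (Ocln, 0.0385). The block changed no other count. Same-numbered arrays of different groups correlated at a mean of 0.018 (140 pairs, 36 over 0.1) against -0.005 for other pairs, and 10 of 40 arrays correlated best with their own number, so the numbers were not used as pairs.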
